A study of Mus musculus with 9 samples.

Results

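The actin regulators of blood cells described here are 10 listed genes whose proteins build, bundle, cap or signal to actin filaments mainly in leukocytes: Was, Coro1a, Arpc1b, Lcp1, Hcls1, Vav1, Rac2, Capg, Lsp1 and Cotl1. Every probe set that carries 1 of these symbols and no other in the array's probe annotation was taken. That gave 15 probe sets for 9 of the 10 genes, out of 8251 genes with such a probe set on the array. Arpc1b is left out of the counts because both of its probe sets also carry the symbol Gm5637. The genes were chosen by name, as a family, with earlier results on the levels in these 3 groups in view, and which of those values counted is not recorded. Their differences between groups are descriptions and their adjusted p-values support nothing further.

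The study measured total RNA from whole lung of C57BL6 mice on 9 Affymetrix arrays, in an asthma model in which ovalbumin (OVA, an egg-white protein) is the allergen. The 3 groups of 3 arrays are lungs of mice challenged with OVA and treated with an agonist of EP3, a receptor for prostaglandin E2 (called agonist below), lungs of mice challenged with OVA alone, and lungs of mice challenged with saline. Titles of the agonist and OVA arrays carry a time of 24 h, and those of the saline arrays carry none. The sources used here give neither the agonist's name, dose and timing nor the mice's age and any sensitization shared by the groups. Nothing says that the 3 arrays of a group are separate mice, so the p-values measure only the spread between these samples, which may be technical. In RNA from whole lung, fewer leukocytes and less RNA per leukocyte cannot be told apart.

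Actin filaments push the leading edge of a crawling or engulfing leukocyte. Vav1 passes receptor signals to small GTPases such as Rac2, which, with WASP-family proteins, switch on the Arp2/3 complex that starts branched filaments. Coronins and HS1 act on those branches, while plastin bundles filaments and CapG caps their ends. Many of these proteins have a close relative in other tissues, which makes the leukocyte form a common marker of blood cells in a tissue sample.

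Values are intensities brought to a common scale across arrays, and log2 was taken after values below 3.10 had been raised to that floor. Values at or below 44.7 count as not detected. Of the 15 probe sets, 11 had at least 3 arrays above that limit and were tested, and these cover all 9 genes. Cotl1 and Vav1 passed this filter through 4 arrays each, the 3 OVA arrays and agonist replicate 3. The tested probe sets were part of 7920 on the whole array, and adjusted p-values come from limma over all 7920, with a threshold of 0.05. Levels of different probe sets are not compared. Alveolar markers identify the tissue as lung: Sftpc, the surfactant protein C gene, ranged from 10138 to 14984 over the 9 arrays.

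In OVA lungs, all 11 tested probe sets had a higher mean log2 level than in saline lungs. Of these, 5 passed the threshold upward (Was, both Lcp1 probe sets, Cotl1 and Capg) and 0 downward, against 5.08% of all tested probe sets called higher and 4.42% called lower. The median log2 change was 0.83 over the 11 probe sets and -0.085 over all 7920. For 10 of the 11, every OVA array lay above every saline array, which held for 15.5% of all tested probe sets. The exception was the Lsp1 probe set 104093_at.

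Was encodes WASP, the blood-cell activator of the Arp2/3 complex, whose loss in humans causes Wiskott-Aldrich syndrome. The stretch around its start site is shown because Was is the only member that passed against saline in both challenged groups in the full fit. That of Vav1 is shown because, of the 6 genes with a promoter in the table, only these 2 held either motif searched. Both come from RefSeq (GRCm38.p6), with 250 bases before and 50 after the start, read 5′ to 3′ on the gene's strand. The Was stretch is chrX:8090442-8090741, minus strand, and the Vav1 stretch is chr17:57278850-57279149, plus strand. Capitals mark GAGGAA, a core bound by the myeloid factor PU.1, on either strand (TTCCTC when read on the reverse), and TGTGGT, a Runx core.
Was: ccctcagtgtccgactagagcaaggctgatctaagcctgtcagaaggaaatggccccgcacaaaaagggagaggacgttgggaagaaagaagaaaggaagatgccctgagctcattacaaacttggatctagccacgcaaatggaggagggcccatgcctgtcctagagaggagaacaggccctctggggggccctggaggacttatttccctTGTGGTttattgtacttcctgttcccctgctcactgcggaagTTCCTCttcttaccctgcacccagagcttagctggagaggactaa
Vav1: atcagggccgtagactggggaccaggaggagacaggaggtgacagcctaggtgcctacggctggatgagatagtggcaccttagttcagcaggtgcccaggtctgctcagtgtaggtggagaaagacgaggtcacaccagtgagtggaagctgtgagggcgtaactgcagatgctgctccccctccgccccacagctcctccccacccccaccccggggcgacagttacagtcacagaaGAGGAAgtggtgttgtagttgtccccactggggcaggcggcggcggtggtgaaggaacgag
The Was stretch holds TGTGGT 37 bases before the start and TTCCTC 5 bases past it. The Vav1 stretch holds GAGGAA 11 bases before the start. GAGGAA on either strand occurs in 28.3% of 32851 promoters in the table and in 2 of the 8 promoters of member genes, and TGTGGT in 16.8% and in 1 of 8, so these matches are only a description of the letters.

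Was was the member with the clearest pattern. Its intensity was 111, 106 and 140 in agonist replicates 1, 2 and 3. It was 127, 138 and 131 on the OVA arrays and 47.8, 38.6 and 38.5 on the saline arrays. All 6 challenged arrays lay above all 3 saline arrays, of which only replicate 1 was above the detection limit. The log2 change of OVA against saline was 1.67 ± 0.14 (SE), a 3.19-fold rise with adjusted p = 0.00242. Holding the dim saline values at the detection limit gave 1.53. Agonist lungs also stood above saline lungs, by 1.51 ± 0.14 (SE) or 2.86-fold, with adjusted p = 0.0101. Was is thus 1 of only 3 probe sets called higher in that comparison, 0.0379% of those tested. The agonist and OVA arrays overlapped, with a log2 difference of -0.16 and adjusted p = 0.508. The call against saline with the agonist was lost when the other group was left out of the fit (adjusted p = 0.101).

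**Figure D1:**
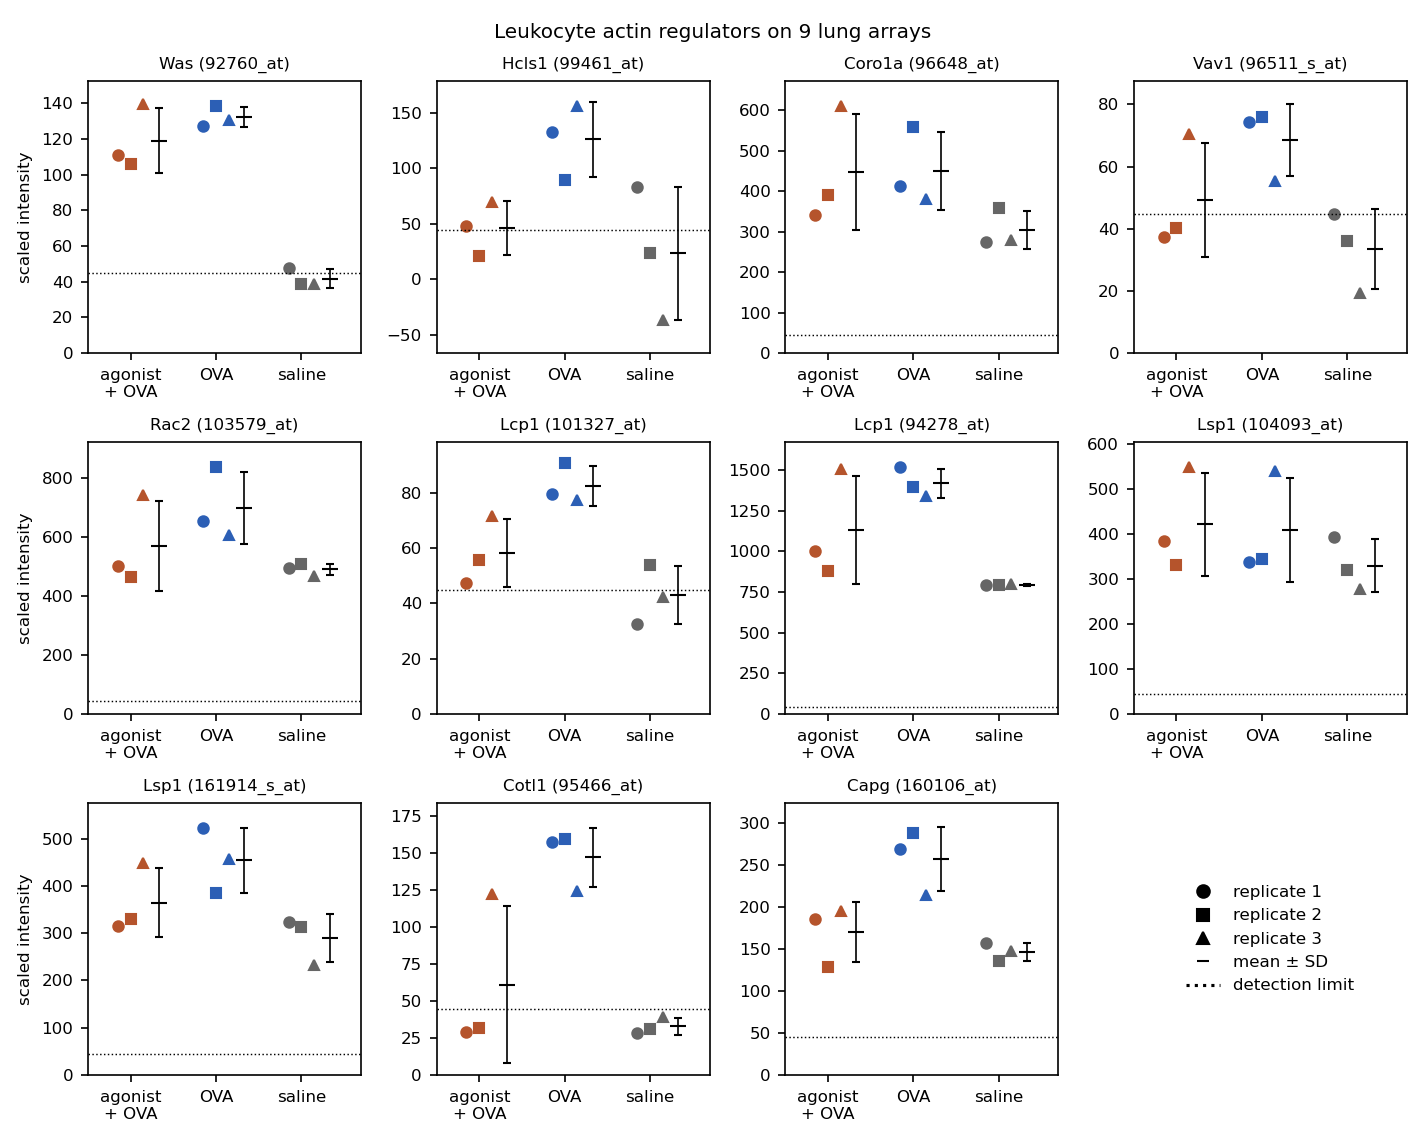
Scaled intensity (y axis, linear, a range of its own in each panel) of the 11 tested probe sets on each array, by group: agonist with OVA, OVA, saline. Symbols are replicates 1 to 3, with the mean ± SD beside them, and the dotted line is the detection limit of 44.7. In the Was panel all challenged arrays lie at 106 or above and all saline arrays at 47.8 or below, while in the Cotl1 panel agonist replicates 1 and 2 lie at 28.8 and 31.9 and replicate 3 at 123.

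Hcls1 encodes HS1, the blood-cell counterpart of cortactin. It measured 47.8, 21.3 and 70.0 on agonist arrays, 133, 89.8 and 156 on OVA arrays, and 83.3, 24.01 and -36.9 on saline arrays. OVA arrays were above all others, and the saline arrays spread from below 0 to nearly the lowest OVA value. The log2 change of OVA against saline was 2.74 ± 1.08 (SE) with adjusted p = 0.141. With the floor raised to the detection limit it was 1.16 and passed, at adjusted p = 0.0462.

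Coro1a encodes coronin 1A, which acts on Arp2/3 branches and is needed for T cell survival in mice. Its levels were 342, 392 and 611 on agonist arrays, 412, 560 and 380 on OVA arrays, and 275, 359 and 279 on saline arrays. The OVA arrays were above the saline arrays and overlapped the agonist arrays. The log2 change of OVA against saline was 0.56 ± 0.25 (SE), which did not pass (adjusted p = 0.181).

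Vav1, an exchange factor that loads Rac proteins with GTP after receptor signals, had 1 of its 3 probe sets tested. That probe set measured 37.2, 40.3 and 70.4 on agonist arrays, 74.5, 76.1 and 55.3 on OVA arrays, and 44.7, 36.0 and 19.4 on saline arrays. All saline arrays and agonist replicates 1 and 2 were at or below the detection limit, and OVA lungs were at least 1.52-fold above saline lungs. The adjusted p for OVA against saline was 0.0879. Rac2, the Rac GTPase of blood cells, which neutrophils need for the oxidative burst, measured 503, 463 and 743 on agonist arrays, 654, 836 and 605 on OVA arrays, and 494, 507 and 468 on saline arrays. OVA arrays and agonist replicate 3 lay above the rest. The log2 change of OVA against saline was 0.50 ± 0.20 (SE), with adjusted p = 0.140.

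Lcp1 encodes L-plastin, the filament bundler of leukocytes. Its brighter probe set, 94278_at, measured 1003, 881 and 1506 on agonist arrays, 1516, 1396 and 1339 on OVA arrays, and 791, 793 and 801 on saline arrays. The saline arrays were almost equal, both challenged groups lay wholly above them, and agonist replicate 3 was as high as the OVA arrays. OVA lungs rose 1.78-fold over saline lungs, a log2 change of 0.83 ± 0.18 (SE) with adjusted p = 0.0348. The other probe set, 101327_at, measured 47.2, 55.8 and 71.7 on agonist arrays, 79.5, 90.6 and 77.3 on OVA arrays, and 32.7, 53.8 and 42.3 on saline arrays. It also rose, by 0.97 ± 0.21 (SE) with adjusted p = 0.0344, and here every agonist array lay below every OVA array. Agonist against saline, 94278_at differed by 0.47 with no overlap between the arrays, and adjusted p was 0.605.

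Capg encodes a protein of the gelsolin family that caps filament ends without cutting them and is abundant in macrophages. It measured 186, 129 and 196 on agonist arrays, 269, 288 and 214 on OVA arrays, and 157, 135 and 148 on saline arrays. OVA arrays were above both other groups. OVA lungs rose 1.74-fold over saline lungs, a log2 change of 0.80 ± 0.18 (SE) with adjusted p = 0.0374. Agonist lungs were 0.61 below OVA lungs on the log2 scale without overlap, and adjusted p was 0.104. The other 2 Capg probe sets were not tested, having 0 and 1 arrays above the detection limit.

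Cotl1 encodes coactosin-like protein, which binds filaments and also the leukotriene enzyme 5-lipoxygenase. It measured 28.8, 31.9 and 123 on agonist arrays, 158, 160 and 125 on OVA arrays, and 28.3, 31.2 and 39.3 on saline arrays. Saline arrays and agonist replicates 1 and 2 were below the detection limit, and agonist replicate 3 was just under the lowest OVA array. OVA lungs were at least 3.27-fold above saline lungs, with a fitted log2 change of 2.17 ± 0.51 (SE) and adjusted p = 0.0398. Against OVA lungs, agonist lungs differed by -1.60 ± 0.51 (SE), which did not pass (adjusted p = 0.113).

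Lsp1, a filament-binding protein of leukocytes and endothelium, was measured by a pair of probe sets that differed. By 104093_at it was 384, 331 and 550 on agonist arrays, 339, 345 and 541 on OVA arrays, and 393, 319 and 278 on saline arrays, with all groups overlapping. By 161914_s_at it was 314, 330 and 448 on agonist arrays, 522, 384 and 456 on OVA arrays, and 323, 314 and 232 on saline arrays. There the OVA arrays lay above the saline arrays, and the log2 change of 0.65 ± 0.20 (SE) had adjusted p = 0.0765, against 0.29 ± 0.26 and 0.493 for 104093_at. The letter s in the name of 161914_s_at, as in that of the tested Vav1 probe set, marks probes that can also match other transcripts.

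The probe sets shared by Arpc1b, a subunit of the Arp2/3 complex enriched in blood cells, and Gm5637 cannot be assigned to either gene alone. By 96356_at the level was 461, 404 and 511 on agonist arrays, 650, 611 and 495 on OVA arrays, and 427, 435 and 372 on saline arrays. The OVA arrays lay above the saline arrays, with a log2 change of 0.50 ± 0.14 (SE) and adjusted p = 0.0626. By 96357_at the change was 0.58 ± 0.30 (SE), with adjusted p = 0.232.

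The calls for OVA against saline were computed again with each array left out in turn. Was passed in each of the 9 fits that left out 1 array, at adjusted p of 0.000781 to 0.0271. Without saline replicate 1, 2 or 3, or OVA replicate 1 or 2, it was the only member probe set that passed. In those 5 fits the calls over the whole array also dropped, to between 80 and 150, against 752 in the full fit. Without OVA replicate 3, 2 member probe sets passed, and without agonist replicate 2, 3 passed. Over all 9 fits the whole array had between 80 and 857 calls, so these counts are not read as a result about the members. Without agonist replicate 1 or 3 the members called numbered 5, as in the full fit, and the whole array had 701 and 857 calls. The direction of all 11 changes stayed upward in all 9 fits.

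**Figure D2:**
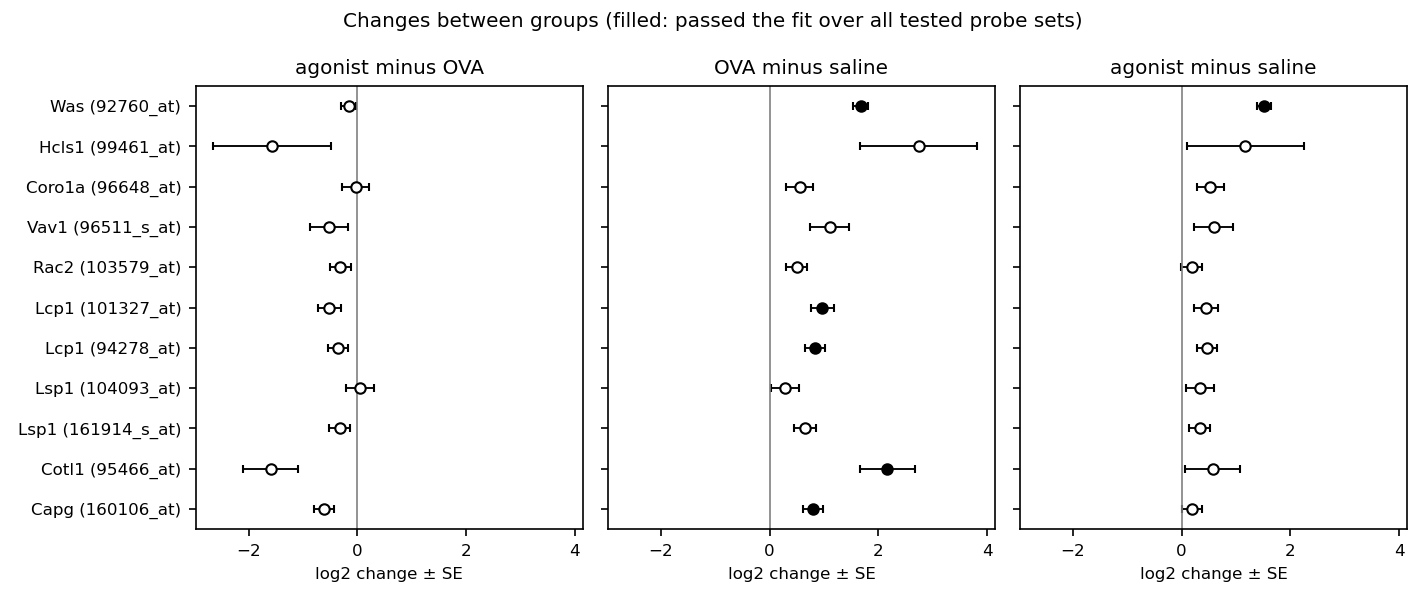
Log2 change (x axis) ± SE of each of the 11 tested probe sets, for agonist minus OVA, OVA minus saline and agonist minus saline. The Was points for OVA minus saline (1.67) and agonist minus saline (1.51) lie close together, whereas for Cotl1 they are 2.17 and 0.57.

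Agonist against OVA, 0 of the 11 member probe sets passed the threshold. In the whole array, 1.25% of probe sets were called higher and 1.5% lower, and 3 members had an unadjusted limma p under 0.05, as did 24.2% of all tested. Only 104093_at of Lsp1 had a difference above 0, and the median log2 change of the members was -0.36, against 0.064 over all tested. The arrays did not overlap, with the agonist lower, for 4 probe sets (Hcls1, Cotl1, Capg and 101327_at of Lcp1), against 12% of all tested. Agonist replicate 3 was the highest agonist array for all 11 probe sets. Without it, Cotl1 was lower by -2.27 ± 0.18 (SE) with adjusted p = 0.00181, and 94278_at of Lcp1 by -0.59 ± 0.10 (SE) with adjusted p = 0.0238. These 2 calls compare with 3.88% of 7839 probe sets called lower in that fit. That array cannot be set aside on the labels, so both versions are given.

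Agonist against saline, all 11 changes were above 0, with a median of 0.47 against -0.0029 over all tested, but Was alone passed. Without agonist replicate 3, the changes of Cotl1 (-0.10) and Rac2 (-0.021) were below 0, and the others stayed above 0. In that fit Capg differed by 0.081, 94278_at of Lcp1 by 0.24 and Was by 1.39 (adjusted p = 0.0161 by limma). Was and 94278_at of Lcp1 did not overlap between the groups, against 6.65% of all tested probe sets. Because the 3 comparisons share arrays, their changes are not independent of each other.

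The mean of the 9 genes' centred log2 levels, with the brightest probe set of each, summarises the arrays. It was -0.16, -0.36 and 0.56 on agonist replicates 1, 2 and 3, against 0.59, 0.64 and 0.53 on the OVA arrays and -0.28, -0.54 and -0.99 on the saline arrays. Agonist replicate 3 lay among the OVA arrays, and replicates 1 and 2 lay with or just above the saline arrays. Vav1, at a root mean square distance of 0.18 log2 units over the 9 arrays, and Lcp1, at 0.23, followed this mean most closely. Was was at 0.41, and Cotl1 and Hcls1 were farthest, at 0.65 and 1.20. Of 5941 other genes, the 5 nearest to the mean profile were Tgfbi at 0.15, Cd52 at 0.17, Cd68 at 0.17, Cd44 at 0.19 and Ptprc at 0.20. Cd52, Cd44 and Ptprc are surface proteins of leukocytes, Cd68 is a macrophage marker, and Tgfbi encodes a matrix protein.

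**Figure D3:**
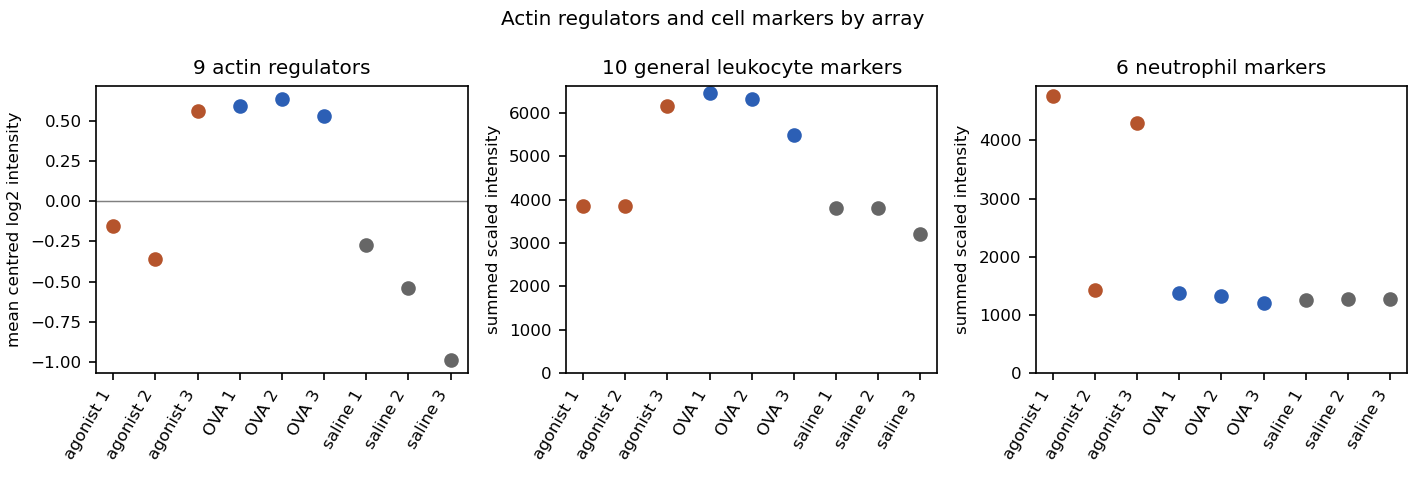
Mean centred log2 intensity of the 9 genes (left), summed scaled intensity of 10 general leukocyte markers (middle) and of 6 neutrophil markers (right), on each array in the order agonist, OVA, saline. Agonist replicate 3 sits at 0.56 in the left panel and 6154 in the middle one, beside the OVA arrays, and agonist replicates 1 and 3 are the high points on the right.

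General leukocyte markers moved the same way. Of 11 listed, 10 were tested, of which 3 rose in OVA lungs (Cd52, Laptm5 and Tyrobp) and 0 fell. Over all tested probe sets, 5.08% were called higher there and 4.42% lower. The median log2 change of the 10 was 0.74, against -0.085 over all tested. Fcer1g, the signalling chain of Fc receptors, was below the limit on every array. The summed intensity of the 10 was 3865, 3854 and 6154 on agonist replicates 1, 2 and 3, 6460, 6313 and 5491 on OVA arrays, and 3804, 3802 and 3204 on saline arrays. Agonist replicate 3 lay with the OVA arrays, and agonist replicates 1 and 2 lay just above the highest saline array. For 3 of the 10 markers (Laptm5, Ptpn6 and Tyrobp) every agonist array lay above every saline array, against 6.65% of all tested probe sets. By limma 0 of the 10 passed for agonist against saline. Ptpn6 and Tyrobp had an unadjusted p under 0.05 there, as did 7.71% of all tested probe sets. The part of leukocyte number in the members' changes was not tested.

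Marker lists for single cell types were read beside these values. The 9 tested macrophage and dendritic cell markers summed to 9647 to 11270 on agonist arrays, 10124 to 10847 on OVA arrays and 8745 to 9412 on saline arrays, of which Lyz2 alone gave 6062 to 6343 on agonist arrays, 3637 to 4645 on OVA arrays and 5148 to 5884 on saline arrays. Lyz2, a lysozyme of macrophages and alveolar cells, ran against the rest: it fell in OVA against saline lungs (-0.43, adjusted p = 0.0492, and 0.0588 without agonist replicate 3) and rose in agonist against OVA lungs (0.57, adjusted p = 0.0444). Of the other macrophage markers 5 rose in OVA lungs (Cd68, Csf1r, Ctss, Itgax and Mrc1), against 5.08% of all tested probe sets called higher. The list's median log2 change was 0.65. Agonist against OVA, the 8 markers other than Lyz2 all had changes below 0, none of which passed, and the list's median was -0.63. Neutrophil markers summed to 4757, 1428 and 4295 on agonist replicates 1, 2 and 3, 1204 to 1372 on OVA arrays and 1255 to 1278 on saline arrays. S100a8 and S100a9, which encode the subunits of calprotectin, carried that difference: S100a8 was 2281, 287 and 2026 on the agonist arrays. Ltf was 167, 260 and 255 on agonist arrays, 305, 213 and 189 on OVA arrays, and 96.2, 91.9 and 164 on saline arrays. Both challenged groups thus lay above saline, as for 6.65% (agonist) and 15.5% (OVA) of all tested probe sets. By limma 0 of the 6 neutrophil markers passed in any comparison. The part of these markers in the members' values was not tested. Of 8 eosinophil markers, 5 were on the array and 1, Alox15, was tested, having passed the filter through the 3 OVA arrays alone. Alox15, a lipoxygenase that macrophages also make, was at most 2.92 on agonist arrays, 106 to 273 on OVA arrays and below 0 on saline arrays. Ccr3, the eotaxin receptor, measured 5.71, -5.70 and 14.1 on agonist arrays, 22.0, 33.6 and 44.8 on OVA arrays, and 2.06, 27.7 and 20.02 on saline arrays, with 1 array above the limit. Epx, Prg2 and Il5ra lay near 0 or below it on all arrays. Of the tested T cell and B cell markers, 6 and 5, none passed by limma in any comparison of the 3 groups. Thy1 came nearest, at adjusted p = 0.0606 for OVA against saline, where 2 of the 11 (Thy1 and Cd72) had an unadjusted p under 0.05, as did 29.1% of all tested probe sets. With the floor at the detection limit both passed for OVA against saline, Thy1 at adjusted p = 0.0347 and Cd72 at 0.0264, and Thy1 was lower in agonist against OVA lungs at 0.0471. Without agonist replicate 3 they passed for OVA against saline (0.0102 and 0.0223) and, downward, for agonist against OVA (0.00556 and 0.0219). Cd3e was below 0 on all arrays. Of the tested NK cell, mast cell and platelet markers, 4, 2 and 1, none passed upward for OVA against saline. Their median log2 changes there were -0.036, -0.43 and -0.36, with 1 NK cell marker above 0. The platelet marker, Gp9, passed downward, as did 4.42% of all tested probe sets, and had adjusted p = 0.0574 by limma without agonist replicate 3. The ratio of 3′ to 5′ signal of the actin control, a measure of RNA quality, was 1.48 to 1.51 on agonist arrays, 1.34 to 1.42 on OVA arrays and 1.34 to 1.45 on saline arrays. By that ratio every agonist array lay above the other 6. The same ratio of the Gapdh control overlapped between the groups. It was 1.11 to 1.16 on agonist arrays, 1.08 to 1.11 on OVA arrays and 1.08 to 1.15 on saline arrays. The part of RNA quality in the agonist comparisons was not tested.

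The relatives of these genes in other tissues were listed as 17 genes, of which 14 were on the array with 1 symbol and 10 were tested (Dbn1, Rac3, Vav2 and Vil1 were too dim). In OVA against saline lungs 1 rose, 0 fell and 9 did not pass, with a median log2 change of -0.17. Over all tested probe sets, 5.08% were called higher there and 4.42% lower. Gsn, gelsolin, the filament-cutting relative of Capg, differed by -0.44 ± 0.11 (SE) with adjusted p = 0.0518. Rac1, the general form beside Rac2, differed by -0.22 ± 0.093 and Pls3, the plastin of other tissues, by -0.15 ± 0.077. Cttn, cortactin itself, differed by -0.18 ± 0.16, Arpc1a by -0.24 ± 0.16, Coro1b by 0.14 ± 0.12 and Coro1c by 0.26 ± 0.16. Flii differed by -0.27 ± 0.11 and Dbnl by -0.046 ± 0.16. Gsn, Rac1, Pls3 and Flii each had all OVA arrays below all saline arrays, which held for 22% of all tested probe sets. Coro1c and Scin had all OVA arrays above all saline arrays, which held for 15.5%. Markers of several other cell types were lower too, and their calls are read beside the 4.42% of all tested probe sets called lower. Of endothelial markers 4 of 6 fell in OVA lungs, and their sum was 7098 to 7320 on agonist arrays, 5282 to 5761 on OVA arrays and 7021 to 7678 on saline arrays. Of heart muscle markers 4 of 5 fell (median -0.92), with sums of 3164 to 3494 on agonist arrays, 2402 to 3151 on OVA arrays and 2875 to 3538 on saline arrays. Of alveolar markers 3 of 6 fell, with sums of 27253 to 28195 on agonist arrays, 19790 to 23717 on OVA arrays and 25105 to 29280 on saline arrays. Sftpc alone, at 10138 or more on each array, made up much of these sums. Pdpn and Sftpd ran the other way, with every OVA array above every saline array, as for 15.5% of all tested probe sets. Pdpn was 265 to 320 on OVA arrays and 216 to 247 on saline arrays. Sftpd was 122 to 161 on OVA arrays and 64.4 to 94.9 on saline arrays. Cyp2f2, a cytochrome of club cells, fell in OVA against saline lungs (-0.97, adjusted p = 0.0115). The part of these cells in the relatives' values was not tested. The relative that rose was Scin, which encodes adseverin, a filament-cutting protein: 26.5, 13.2 and 68.1 on agonist arrays, 98.0, 144 and 151 on OVA arrays, and 1.63, 19.4 and 17.6 on saline arrays. Scin passed the filter only through the 3 OVA arrays and agonist replicate 3, so its call is a description and supports nothing further. OVA arrays were at least 2.88-fold above saline arrays (adjusted p = 0.0348 by limma). Agonist arrays lay below the OVA arrays without overlap, which held for 12% of all tested probe sets. Whether a member's change differed from that of its relative was not tested.

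**Figure D4:**
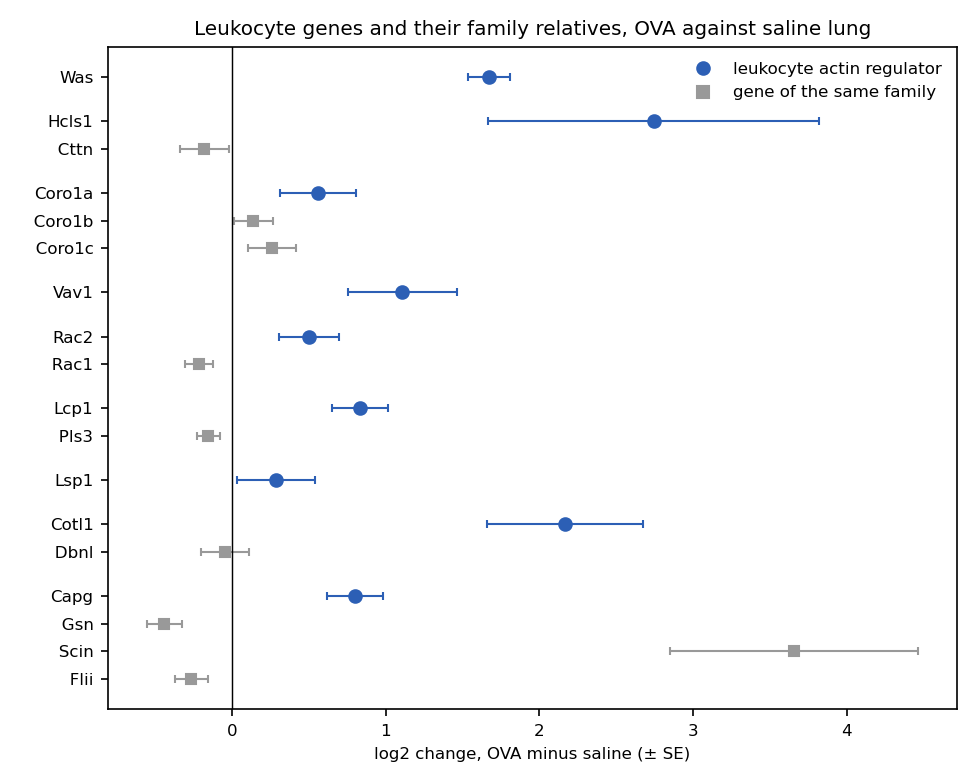
Log2 change of OVA minus saline (x axis) ± SE for the brightest tested probe set of each of the 9 genes (circles) and, under each, its tested relatives (squares). The circles run from 0.29 (Lsp1) to 2.74 (Hcls1), and all squares but Scin lie between -0.44 and 0.26.

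Calls in the rest of the actin machinery are read beside the 5.08% of all tested probe sets called higher in OVA against saline lungs. Of 8 genes of the Arp2/3 complex, 6 were tested and Arpc4 alone rose in OVA lungs. It measured 314, 264 and 353 on agonist arrays, 624, 438 and 430 on OVA arrays, and 306, 287 and 305 on saline arrays, with adjusted p = 0.0416 for OVA against saline. OVA arrays lay above both other groups. Of 19 general actin genes, such as those for actins, cofilin and profilin, 17 were tested. By limma 0 passed for OVA against saline and 4 had an unadjusted p under 0.05 (Actb, Capza2, Cfl1 and Rdx), against 29.1% of all tested probe sets. Every OVA array lay above every saline array for 6 of the 17 and below for 1, against 15.5% and 22% of all tested. The median log2 change of the 17 was 0.088, against -0.085 over all tested. Cfl1, cofilin, differed by 0.29 ± 0.11 (SE) and Rdx, radixin, by -0.40 ± 0.11. Agonist against OVA, Actb, beta-actin, measured by probes shared within the actin family, fell by 0.63 on the log2 scale (adjusted p = 0.0366), at 678, 749 and 666 on agonist arrays against 1033, 1185 and 1034 on OVA arrays.

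A further 21 genes of the leukocyte cytoskeleton were listed, of which 14 were on the array with 1 symbol and 12 were tested. In OVA lungs 3 rose and 0 fell, against 5.08% of all tested probe sets called higher and 4.42% called lower. The median log2 change was 0.52, and 10 of the 12 were above 0. Nckap1l (-0.30 ± 0.25, SE) and Wipf1 (-0.18 ± 0.14) were below 0, and neither passed. Fermt3, kindlin-3, an integrin activator, rose by 0.57 ± 0.11 (SE) with adjusted p = 0.0245, and Btk, a kinase of B cells and myeloid cells, by 0.69 ± 0.17 (SE) with adjusted p = 0.0430. Myo1f, a myosin of leukocytes, measured 111, 120 and 185 on agonist arrays, 146, 56.0 and 127 on OVA arrays, and 1.72, 5.74 and 17.4 on saline arrays. As for Was, every challenged array lay above every saline array. Myo1f passed the filter through the 6 challenged arrays alone. Myo1f was at least 2.26-fold above saline with OVA (adjusted p = 0.0181) and at least 3.02-fold with the agonist, where adjusted p was 0.129. Pstpip1, which binds WASP, measured 78.0, 52.0 and 87.1 on agonist arrays, 60.9, 64.9 and 67.1 on OVA arrays, and 30.2, 34.7 and 51.3 on saline arrays, and neither comparison with saline passed (adjusted p = 0.0856 for OVA and 0.431 for agonist). These lists were drawn up with earlier results of the same arrays known.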

How the data were processed

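Total RNA of lung was measured on 9 single-colour Affymetrix arrays, 3 in each of 3 groups, grouped by their titles. The authors deposited 1 linear intensity for each probe set of an array. Their software, summarization and scaling are named in none of the sources used here. Values below 0 show that some signal had been subtracted. The 2% trimmed mean ran from 138.7 to 241.2 between arrays, so each array was multiplied by 0.741 to 1.29 to reach a common mean. The 66 controls among the 12488 probe sets were not tested. The floor of 3.10 and the detection limit of 44.7 are the 20th and 40th percentiles of all scaled values. A probe set was tested with at least 3 of 9 arrays above the limit.

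A single limma model (version 3.58.1, in R 4.3.3, with moderated variances) was fitted to all 9 arrays and left 6 residual degrees of freedom. Its two-sided p-values were corrected by the Benjamini-Hochberg method across all 7920 tested probe sets. The fit was tested on simulated data. "At least" folds set the brighter group's geometric mean over the detection limit where all arrays of the dimmer group lay at or below it. The number of arrays limits the precision. Gene symbols come from the array's probe table (10833 probe sets with 1 symbol, 396 with several, 1193 with none), of which 10817 were matched by gene ID to RefSeq, changing 0 symbols.

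Named genes were all members and relatives, up to 4 genes per list with the largest change, passing ones first, and the 5 genes nearest to the mean profile, where the brightest probe set stood for a gene. Members and lists were chosen with earlier results of these data known. Alternatives were other normalizations, floors, filters, thresholds and variance models, a block for the replicate number, each array left out, and fits to just the 6 arrays of a comparison. The deviations of same-numbered arrays from their group means had r of -0.139 to 0.170 across probe sets. Between OVA and saline arrays, r was 0.0354 to 0.170 for same-numbered pairs and -0.154 to 0.0438 for the others. The labels give no pairing, so the numbers were not taken as pairs. Figures were drawn with matplotlib 3.10.9.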

Additional observations from a re-analysis of the deposited data

How the results depend on the processing

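Of 582 recomputed values for single member probe sets, 534 kept direction and side of the threshold, 35 lost their call, 3 gained one and 10 changed sign. Calls lost were those of Capg, Cotl1 and both Lcp1 probe sets for OVA against saline (33 in all) and Was for agonist against saline (2). Member calls for OVA against saline, 5 in the full fit, numbered 1 with no filter and 3 with the filter at the 60th percentile, and 1 to 5 when 1 array was left out. For agonist against OVA they numbered 0 to 2 and for agonist against saline 1 to 1 when 1 array was left out. With only the 6 arrays compared, they numbered 0 for agonist against saline. The whole-array share for OVA against saline is not given for the fits with no filter or the 60th percentile. Their member counts are therefore not read as a result about the members. Over the whole array the calls were 752 for OVA against saline, 218 for agonist against OVA and 6 for agonist against saline. For agonist against OVA they became 361 with the floor at the 40th percentile, 445 with the filter at the 60th, 453 with an intensity trend and robust prior, and 18 with only 6 arrays. For agonist against saline they became 3 with the filter at the 60th percentile. At an adjusted p of 0.1 they became 1511 for OVA against saline and 831 for agonist against OVA. With 1 array left out, the 3 counts ran from 80 to 857, 7 to 526 and 5 to 16. With the replicate number as a block, the labels giving no pairing, the calls were 50, 14 and 2, with 1 member (OVA against saline), 0 and 0. The signs that turned were of values that did not pass. Hcls1, agonist against saline, was -0.051 with the floor at the 40th percentile and -0.11 to 2.26 with 1 array left out. With 1 array left out, agonist against OVA ran from -0.16 to 0.27 for 104093_at of Lsp1 and from -0.28 to 0.14 for Coro1a, and agonist against saline from -0.021 to 0.32 for Rac2 and from -0.10 to 0.94 for Cotl1. The cause was not tested, beyond the fewer arrays or probe sets of those fits. Signal near the detection limit restricts Vav1, Cotl1, Hcls1 and 101327_at of Lcp1.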
